A study of Mus musculus with 30 samples.

Results

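Mesenchyme from the distal part of the mouse forelimb bud was compared with mesenchyme from the proximal part of the forelimb bud after 1 or 2 days in culture. The cells came from CD-1 embryos at stage E10.5. The distal 1/3 of the forelimb gave the population that the labels call intermediate, and the proximal 2/3 gave the one called late. Both were plated at high density, in medium without added factor or with 20 ng/ml BMP4, a bone morphogenetic protein that favours cartilage formation, and each population, day and treatment has 2 arrays. The comparison therefore rests on 8 distal and 8 proximal arrays, 16 of the 30 in the series, chosen from the labels alone. The 4 forelimb arrays of day 0 were left out. No genotype or transgene is given, the cells of about 280 embryos were pooled for the RNA, and the labels set the populations apart by the part of the limb taken. Other differences between them, such as in handling, were not tested. Levels are log2(signal + 16), where signal is the brightness of a gene's probe set on an Affymetrix Mouse 430 2.0 array. A difference is distal minus proximal on that scale, with the standard error of a limma fit that compares the populations within each day and treatment, so a positive value means higher in distal cells.

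A limb bud grows out from the flank under fibroblast growth factors made by the ridge of ectoderm at its tip. The transcription factors Meis1 and Meis2 mark the part nearest the body, from which the upper limb and its girdle form. Lhx2, Lhx9 and the last genes of the HoxA and HoxD clusters are turned on in the growing tip, where the hand or foot forms. Muscle cells do not arise from limb mesenchyme. Their precursors leave the somites, which lie beside the neural tube, and enter the limb from its base.

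The values that bear on the quality of the arrays overlapped between the populations. Median signal per array was 34.6 to 46.0 on distal and 33.9 to 39.9 on proximal arrays, and the 3' over 5' signal ratio of Gapdh, a sign of RNA quality, was -0.36 to -0.04 and -0.41 to -0.01 on the log2 scale. The limb mesenchyme genes Prrx1, Prrx2 and Twist1 lay above the 40th percentile of their array on all 16 arrays. Arrays of a population that carry the same replicate number deviated from their group means together across days and treatments, with correlations over genes of 0.224 to 0.361 in distal and 0.0343 to 0.189 in proximal cultures. The 16 correlations between a distal and a proximal group, numbers matched, ran from -0.000645 to 0.308, so part of the deviation was shared by both populations. Arrays of a population with the same number may not be independent, and p-values that treat all 8 as such may be too small. Averaging each population's arrays of the same replicate number leaves 4 means. Of 143 named genes past the threshold 69 also passed with them, and for genes printed with their adjusted p that did not, the adjusted p of that fit follows as the 4-mean value. That fit has no term for an offset common to both populations. With the replicate number as a term, which leaves 1 residual degree of freedom, the 4 means kept 132 of the 143 calls, and among genes named here Meis3, Hoxa2, Hoxa11, Hoxb6, Pax3, Tnnt2, Ihh and Spry2 lost theirs.

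The 3 genes taken as markers of the dissection had levels that did not overlap between the populations. Meis2 had a lowest, median and highest level of 7.39, 7.89 and 8.58 on the 8 distal arrays and of 9.37, 9.77 and 10.45 on the 8 proximal arrays. It was 3.8-fold lower in distal cells (-1.93 ± 0.18, adjusted p = 1.49e-06). Emx2, a homeobox gene needed for the shoulder blade, had 4.48, 5.01 and 6.01 on distal and 6.34, 7.01 and 7.56 on proximal arrays (-1.90 ± 0.17, adjusted p = 6.67e-07). Lhx2, which keeps the limb tip responsive to the ridge, went the other way, with 7.71, 8.28 and 9.24 on distal against 5.78, 6.85 and 7.19 on proximal arrays (1.77 ± 0.14, adjusted p = 2.28e-07). These markers were chosen with earlier values of these arrays known, so their separation is not an independent check of the labels. Emx2 was dim in distal cells, with signals of 6.3 to 48.3. The filter on low values had its cutoff at 20.24 to 30.09, so the fold of Emx2 is understated and its lack of overlap is weaker support. Tbx5, the forelimb factor, was at 7.96, 8.69 and 9.0 on distal and 8.32, 8.54 and 9.19 on proximal arrays, and its difference of 0.05 ± 0.15 did not pass the threshold.

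Of 14692 genes tested, 1307 (8.9%) differed between the populations at an adjusted p below 0.05. In distal cells 475 genes (3.23%) were higher and 832 (5.66%) lower, and the median difference over all genes was 0.0011. Counts of called genes in the lists below are to be read beside these shares. Large differences lay mostly on the proximal side, since 34 genes were over 2-fold higher in distal cells and 183 over 2-fold lower. The sign was the same in all 4 pairs of day and treatment for 1280 of the 1307. All 8 distal arrays lay above all 8 proximal arrays for 45 genes (0.306%) and below them for 191 (1.3%). The 4-mean fit called fewer genes, 46 higher and 220 lower, 265 of them among the 1307. With the replicate number as a term it called 316 higher and 523 lower, 755 of them among the 1307.

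**Figure D1:**
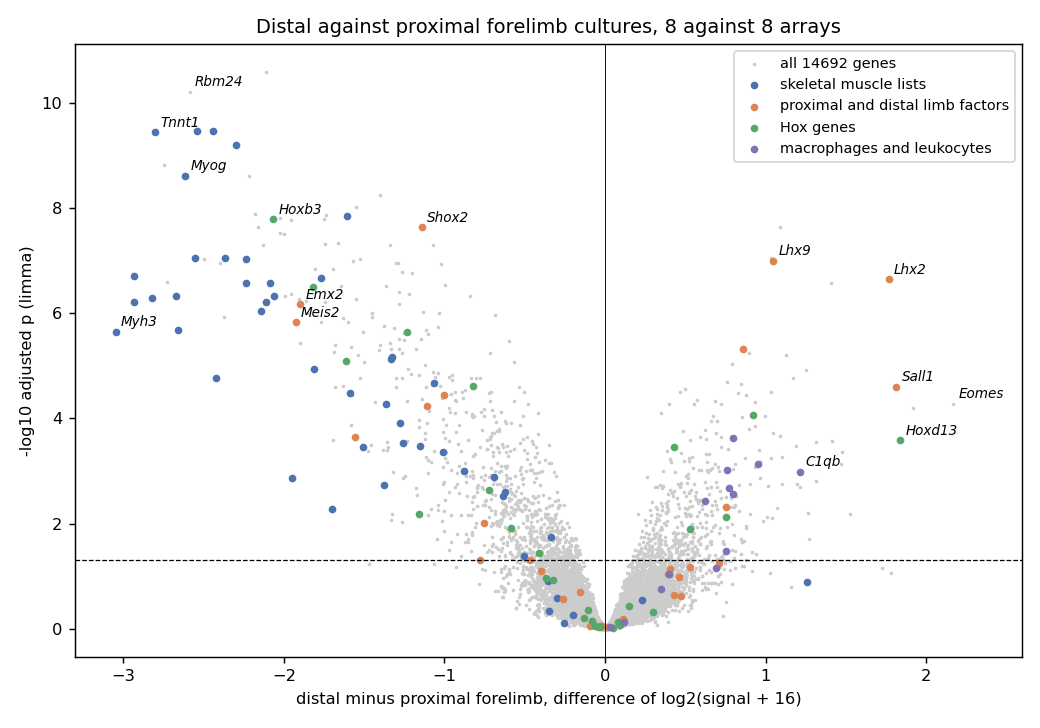
Difference between distal and proximal cultures (x axis, log2 scale, positive where distal is higher) against -log10 of the adjusted p from limma (y axis) for 14692 genes, with 4 groups of genes in colour and the threshold of 0.05 as a dashed line. The genes of skeletal muscle fill the left side, with Myh3 at -3.05, and the right side is led by Eomes at 2.17, Lyz1 at 1.92, Hoxd13 at 1.84, Sall1 at 1.81 and Lhx2 at 1.77.

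Transcription factors of the proximal limb and girdle were lower in distal cells for 9 of the 16 members tested and higher for none, with a median of -0.61. Beside Meis2 and Emx2, the clearest was Shox2, which the upper limb skeleton needs. Its level was 9.68, 9.89 and 10.46 on distal and 10.80, 11.09 and 11.32 on proximal arrays, without overlap (-1.14 ± 0.07, adjusted p = 2.33e-08). Irx3 and Irx5, a pair of neighbouring homeobox genes active early in the proximal and anterior limb, differed by -1.0 ± 0.12 and -1.11 ± 0.14. Osr1, a zinc finger factor of limb connective tissue, had a smaller difference (-0.75 ± 0.17, adjusted p = 0.00951). Meis3 and Pax1 passed narrowly (adjusted p = 0.0484 and 0.0497), and lost their calls in 20 and 18 of the alternative settings. In fits without 1 array their adjusted p reached 0.105 and 0.109, so both calls are weak. Their 4-mean values were 0.209 and 0.0965. In the 4-mean fit 6 of the 9 remained past the threshold, and 8 with the replicate number as a term.

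Meis1 showed how far the replicates of the distal population lay apart. On the 4 distal arrays of replicate 1 it was 6.35, 6.38, 6.44 and 6.21, and on those of replicate 2 it was 7.67, 7.41, 7.46 and 7.32, in the order day 1 control, day 1 BMP4, day 2 control, day 2 BMP4. The proximal arrays, at 8.05 to 8.93, were higher than all of them, and the difference was -1.56 ± 0.23, adjusted p = 0.000228. It was -1.86 within replicate 1 and -1.26 within replicate 2, and the 4-mean value was 0.129, or 0.00154 with the replicate number as a term. In each of the 8 groups the replicate 2 array was the higher one. Of its other probe sets, neither of which passed, 1 gave 0.26 ± 0.17 and 1 gave -0.21 ± 0.12. Over all named genes past the threshold, 113 other probe sets were fitted, of which 6 had the opposite sign and 0 passed in that direction. Probe sets of the same sign that did not pass are not in these counts.

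Factors of the distal limb tip were higher in distal cells for 5 of 15 members tested and lower for none, with a median of 0.48. Lhx9, which overlaps with Lhx2 in function, had a lowest, median and highest level of 9.24, 9.91 and 10.35 on distal and 8.12, 8.84 and 9.47 on proximal arrays (1.05 ± 0.08, adjusted p = 1e-07). In both populations every day 2 array lay below every day 1 array and the ranges of the populations overlapped, while the difference in the 4 pairs of day and treatment was between 0.91 and 1.16. Sall1, a zinc finger factor of the hand plate, was at 7.80, 8.54 and 9.05 and 5.49, 6.61 and 7.49, without overlap (1.81 ± 0.22, adjusted p = 2.48e-05, 4-mean value 0.0685). Jag1, a Notch ligand made in the distal limb, differed by 0.86 ± 0.09, adjusted p = 4.8e-06, also without overlap, and Tfap2a, a factor of the limb ectoderm and distal mesenchyme, by 0.75 ± 0.16, adjusted p = 0.00487, 4-mean value 0.166. Another Jag1 probe set gave 0.56 ± 0.11 and passed, while a further probe set gave -0.01 ± 0.13 and did not. Sall4, Msx1 and Msx2, which are also active in the tip, had positive differences of 0.40 ± 0.13, 0.53 ± 0.17 and 0.46 ± 0.17 that did not pass.

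Eomes, a T-box factor better known from the early embryo and the immune system, had the largest positive difference of all named genes. It was at 6.20, 8.27 and 8.79 on distal and 4.44, 6.05 and 6.41 on proximal arrays, a 4.49-fold difference (2.17 ± 0.28, adjusted p = 5.2e-05), and 1 of the distal arrays lay within the proximal range. Zic5, a zinc finger factor, was higher as well (1.25 ± 0.14, adjusted p = 1.19e-05). Both stayed past the threshold with 4 means (adjusted p = 0.0262 and 0.0354). Of the other leading genes on the distal side, Tinagl1, a basement membrane protein, Pmaip1, a promoter of cell death, F11r, a junction protein, and Angptl1, a secreted angiopoietin-like protein, differed by 1.53 ± 0.33, 1.47 ± 0.23, 1.31 ± 0.20 and 1.27 ± 0.32. None of these 4 kept its call in the 4-mean fit, where the adjusted p was 0.271, 0.126, 0.0646 and 0.3.

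The 8 arrays of distal hindlimb cultures at the same days and treatments, called early in the labels, allow the levels to be set side by side, without a test. Emx2 and Irx5 there had medians of 5.17 and 7.89, the first near the distal forelimb (5.01) and the second near the proximal forelimb (7.61). Meis2 had 9.52, 10.22 and 11.10 and Meis1 8.32, 9.16 and 9.36, medians above those of the proximal forelimb. Lhx2, at 5.95, 6.47 and 7.15, and Hoxd13, at 6.80, 7.52 and 8.07, had medians below those of the proximal forelimb, while Lhx9, at a median of 9.64, lay nearer the distal forelimb. The hindlimb piece was the distal 1/2 of its bud, a cut that differs from both forelimb pieces.

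**Figure D2:**
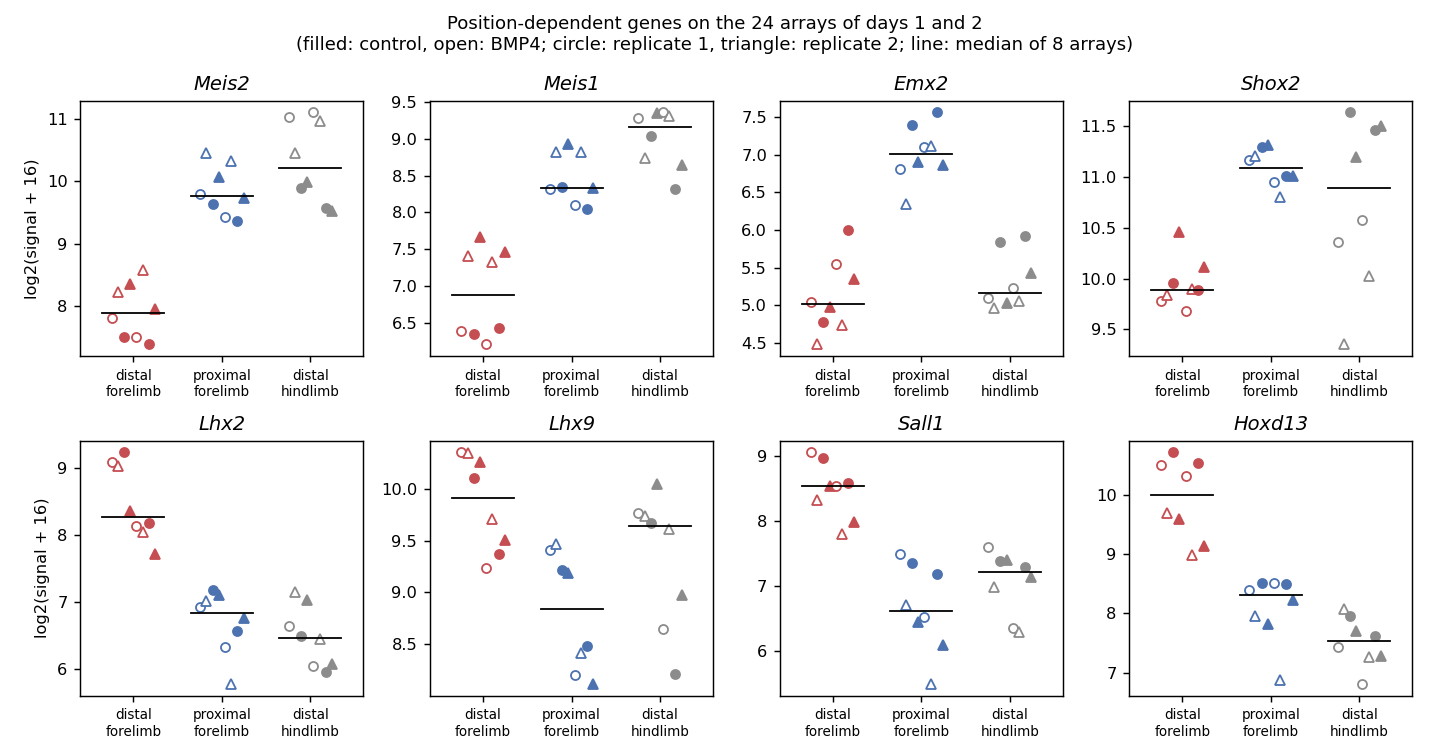
Level of 8 position-dependent genes (y axis, log2(signal + 16)) on the 24 arrays of days 1 and 2, by population (x axis), with 1 point per array and a line at the median of 8. Meis2, Meis1, Emx2 and Shox2 are lower on every distal than on every proximal forelimb array, and Lhx2, Sall1 and Hoxd13 are higher; for Meis1 and Hoxd13 the distal triangles of replicate 2 lie nearer the proximal arrays than the circles of replicate 1.

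The Hox genes, which give cells their position along an axis by their place in 4 chromosomal clusters, split by paralogue number. Of 11 tested members numbered 9 to 13, 5 were higher in distal cells and none lower (median 0.30). Of 15 tested members numbered 1 to 8, 9 were lower and none higher (median -0.58). Hoxd13, the last gene of its cluster and a regulator of the digits, was at 8.98, 10.01 and 10.72 on distal and 6.87, 8.31 and 8.52 on proximal arrays, without overlap (1.84 ± 0.27, adjusted p = 0.00026). It too was split by replicate, with a difference of 2.04 within replicate 1 and 1.63 within replicate 2 and a 4-mean value of 0.112, or 0.000309 with the replicate number as a term.

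Differences of the other HoxD genes became smaller from the end of the cluster inwards, apart from Hoxd12. They were 0.30 ± 0.23 for Hoxd12, which did not pass, 0.92 ± 0.12 for Hoxd11, 0.43 ± 0.07 for Hoxd10 and -0.37 ± 0.13 for Hoxd9, which did not pass either. Steps between neighbouring genes were not tested. In the HoxA cluster, Hoxa13, a factor of the hand plate, was at 5.53, 6.41 and 7.14 on distal and 5.28, 5.62 and 5.88 on proximal arrays (0.76 ± 0.17, adjusted p = 0.00739, 4-mean value 0.238), and Hoxa11, a factor of the forearm, differed by 0.53 ± 0.13, adjusted p = 0.0126, 4-mean value 0.334. The probe set for Hoxa11os, the transcript from the opposite strand of Hoxa11, had a larger difference (1.32 ± 0.24, adjusted p = 0.00151, 4-mean value 0.195), and signal from the overlapping pair may be shared. Hoxa10 and Hoxa9 did not pass, at 0.15 ± 0.09 and -0.11 ± 0.08. None of the 5 called genes of this group of Hox genes kept its call in the 4-mean fit, and 4 did with the replicate number as a term.

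The genes from the other end of the clusters that were lower in distal cells belonged to HoxB and HoxC, with Hoxa2 as the exception. Hoxb3 was at 5.32, 5.75 and 6.09 on distal and 7.62, 7.71 and 8.33 on proximal arrays, 4.2-fold lower and without overlap (-2.07 ± 0.13, adjusted p = 1.65e-08). Hoxc4, Hoxc5 and Hoxc6 also had no overlap, at -1.82 ± 0.15, -1.62 ± 0.17 and -0.82 ± 0.10. Hoxc4 and Hoxc5 were above the 40th percentile of the array on 0 of 8 distal and 8 of 8 proximal arrays, so their folds are understated. The filter on low values kept them through the proximal arrays alone, so their lack of overlap is no separate support. Both still passed without that filter. Hoxb2, Hoxb4, Hoxb5 and Hoxb6 differed by -1.23 ± 0.12, -0.72 ± 0.14, -1.16 ± 0.25 and -0.58 ± 0.14. Hoxd3 and Hoxd8, the tested HoxD genes of this group, were at -0.13 ± 0.13 and -0.08 ± 0.10 and did not pass. With 4 means, 6 of the 9 calls remained, and 7 with the replicate number as a term.

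**Figure D3:**
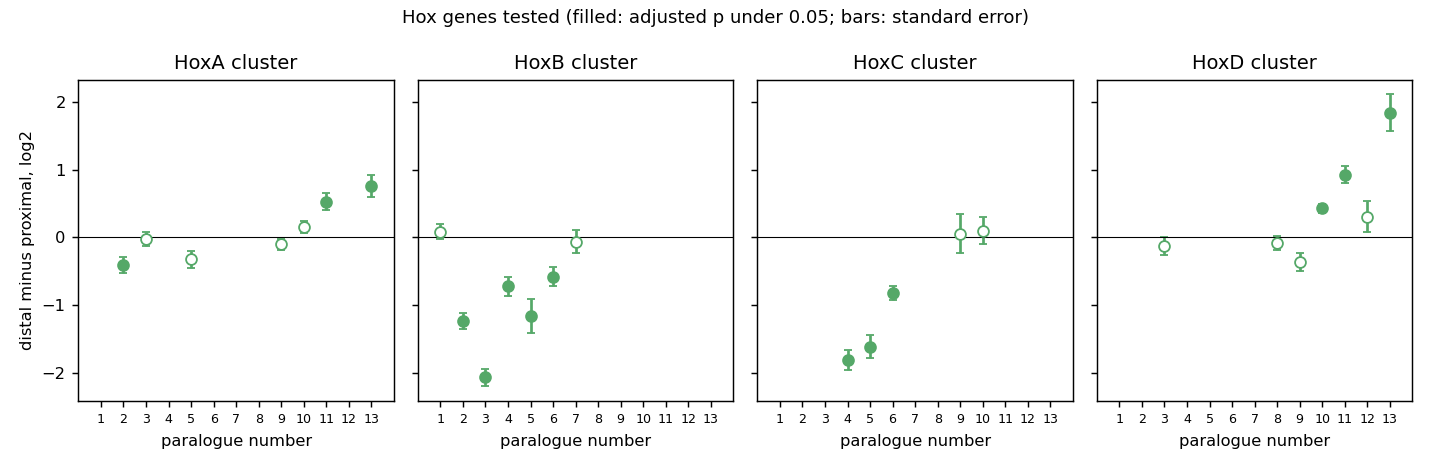
Distal minus proximal difference (y axis, log2 scale, bars are the standard error) of the Hox genes tested, by paralogue number (x axis) and cluster, filled where the adjusted p is below 0.05. Filled points lie above 0 for numbers 10 to 13 of HoxA and HoxD and below 0 for numbers 2 to 6 of HoxA, HoxB and HoxC.

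Genes of the anterior-posterior axis gave a few large differences. In the limb, Sonic hedgehog from the posterior margin acts against Gli3, and Tbx2 and Tbx3 lie in the anterior and posterior margins. Tbx2 was at 5.20, 5.47 and 7.92 on distal and 7.01, 7.72 and 8.77 on proximal arrays (-1.90 ± 0.19, adjusted p = 3.61e-06), and Tbx3 at 5.81, 6.02 and 7.91 and 7.67, 8.06 and 8.64 (-1.68 ± 0.17, adjusted p = 4.04e-06). For both, 7 of the 8 distal arrays lay below every proximal array and 1 lay within the proximal range. Gli3, a repressor of hedgehog targets, was higher in distal cells (0.53 ± 0.08, adjusted p = 0.000261, 4-mean value 0.108) and Gli1, a target of the pathway, lower (-0.51 ± 0.13, adjusted p = 0.0182, 4-mean value 0.249). Of the 15 members tested 1 was higher and 3 lower, and Hand2, a posterior factor, was at 0.0 ± 0.11.

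Readouts of fibroblast growth factor signalling did not move one way. Of 13 tested, Dusp6, a phosphatase that dampens the pathway, was higher in distal cells (0.52 ± 0.11, adjusted p = 0.00487, 4-mean value 0.141), while the factors Etv4 and Etv5 and the inhibitors Spry1 and Spry2 were lower, at -0.92 ± 0.16, -0.43 ± 0.10, -0.51 ± 0.11 and -0.29 ± 0.07. None of these 5 passed in the 4-mean fit (0 of 13), and all but Spry2 did with the replicate number as a term. Spry2 turned to 0.02 (adjusted p = 0.928) when all its probe sets were averaged. Among 13 ligands and receptors, Fgf7, a growth factor of connective tissue, Fgf9 and Fgf13 were lower in distal cells (-1.15 ± 0.11, -0.97 ± 0.14 and -0.48 ± 0.11) and the receptor Fgfr2 was higher (0.35 ± 0.08). Of these 4 only Fgf7 kept its call in the 4-mean fit, with values of 0.0715, 0.0727 and 0.1345 for Fgf9, Fgf13 and Fgfr2. All 4 kept theirs with the replicate number as a term. Fgf10, which the limb mesenchyme uses to maintain the ridge, was at 0.59 ± 0.20 and did not pass.

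Genes of retinoic acid, a signal made at the base of the limb, were lower in distal cells for 4 and higher for 1 of 15 tested. Rxrg, a retinoid X receptor that developing muscle also uses, was at 4.35, 5.30 and 6.30 on distal and 7.44, 7.83 and 8.33 on proximal arrays, without overlap (-2.50 ± 0.18, adjusted p = 9.31e-08). Its distal signals of 4.3 to 62.6 reached below the cutoff of the filter on low values (20.24 to 30.09), so its fold is understated. The retinoid-binding proteins Crabp1 and Crabp2 and the retinol transporter Stra6 differed by -0.94 ± 0.18, -0.55 ± 0.15 and -0.87 ± 0.21. Rarb, a receptor that retinoic acid induces, was higher in distal cells (0.74 ± 0.19, adjusted p = 0.0235, 4-mean value 0.231). The synthesising enzyme Aldh1a2 and the degrading enzyme Cyp26b1 were at 0.69 ± 0.31 and -0.08 ± 0.10 and did not pass. In the 4-mean fit Rxrg was the 1 gene of the list to keep its call, with values of 0.0847, 0.3 and 0.264 for Crabp1, Crabp2 and Stra6. With the replicate number as a term all 5 kept theirs.

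The 15 largest negative differences were led by genes of skeletal muscle. Of 29 tested genes of the sarcomere, the contractile unit, 24 were lower in distal cells and none higher (median -1.77), and of 21 tested genes of myogenic commitment 18 were lower and none higher (median -1.07). Among the 100 genes with the largest negative difference past the threshold, 30 belonged to these lists. The 4-mean fit kept 20 and 13 of the calls, and 23 and 16 with the replicate number as a term. In these bulk samples fewer muscle cells and less muscle RNA per cell cannot be told apart, and this holds for every cell type below.

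The order of the myogenic programme was covered from its start to its end. Pax3, which marks precursors on their way into the limb, had a small difference, with 4.44, 5.05 and 5.28 on distal and 5.11, 5.45 and 5.84 on proximal arrays (-0.51 ± 0.15, adjusted p = 0.0417, 4-mean value 0.211, and up to 0.0958 without 1 array). Its call was lost in 17 of the alternative settings. Lbx1 and Met, which the migrating precursors need, differed by -0.69 ± 0.12 and -1.32 ± 0.14. The determination factors were further apart, with Myf5 at 4.65, 5.17 and 5.52 and 6.67, 7.20 and 7.70 (-2.08 ± 0.17, adjusted p = 2.71e-07) and Myod1 at 7.26, 7.73 and 8.73 and 9.75, 10.07 and 10.54 (-2.30 ± 0.11, adjusted p = 6.27e-10). Neither overlapped between the populations. Distal levels of Myf5 were dim, near the cutoff of the filter on low values, so its fold is understated and its lack of overlap is weak support.

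Myog, the factor that starts differentiation, was at 6.66, 7.66 and 8.29 on distal and 9.75, 10.13 and 10.69 on proximal arrays, 6.13-fold lower (-2.62 ± 0.14, adjusted p = 2.41e-09). Its difference in the 4 pairs of day and treatment was -2.45, -2.70, -2.80 and -2.51, in the order day 1 control, day 1 BMP4, day 2 control and day 2 BMP4. Mymk and Mymx, the membrane proteins that fuse myoblasts, were lower by a similar amount (-2.55 ± 0.18 and -2.73 ± 0.22), as were Cdh15, a cadherin of myoblasts (-2.44 ± 0.11), Rbm24, a splicing factor of muscle (-2.59 ± 0.10), and Smyd1, a methyltransferase needed for sarcomere assembly (-2.75 ± 0.14). None of these 6 genes overlapped between the populations. The lowest distal signals of Mymk, Mymx and Smyd1 (2.9, 4.4 and 15.5) lay below the filter cutoff of 20.24 to 30.09, so their folds may be understated. Other Smyd1 probe sets gave -1.79 ± 0.10 and -1.37 ± 0.16, which passed, and -0.12 ± 0.13 and 0.01 ± 0.11, which did not. Other Rbm24 probe sets gave -2.07 ± 0.14 and -1.34 ± 0.12, which passed, and -0.28 ± 0.15, which did not.

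The 5 largest negative differences past the threshold were those of sarcomere genes. Myh3, the embryonic myosin heavy chain, was at 4.69, 6.67 and 8.63 on distal and 8.73, 9.78 and 10.34 on proximal arrays, 8.27-fold lower (-3.05 ± 0.29, adjusted p = 2.23e-06). The slow troponin gene Tnnt1 had 6.10, 6.64 and 7.83 and 8.88, 9.42 and 10.19 (-2.80 ± 0.13, adjusted p = 3.61e-10). Ranges did not overlap for either gene. The myosin light chains Mylpf and Myl1 and the troponins Tnnc2 and Tnnc1 differed by -2.93 ± 0.25, -2.82 ± 0.24, -2.93 ± 0.23 and -2.67 ± 0.23, with overlapping ranges except for Myl1.

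Promoters of 3 receptor and sarcomere genes are printed as examples, each with 2 copies of the E-box CAGCTG, the sequence that the Myod1 and Myog proteins prefer. They are the 250 bases before the start of the gene, 5′ to 3′ on the gene's strand, from RefSeq on assembly GRCm38.p6, with the E-box in capitals.
Chrng: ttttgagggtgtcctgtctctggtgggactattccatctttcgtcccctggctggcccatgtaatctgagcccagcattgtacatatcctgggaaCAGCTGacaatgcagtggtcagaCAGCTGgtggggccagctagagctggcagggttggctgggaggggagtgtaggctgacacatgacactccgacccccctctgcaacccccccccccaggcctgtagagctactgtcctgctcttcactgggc
Tnnt2: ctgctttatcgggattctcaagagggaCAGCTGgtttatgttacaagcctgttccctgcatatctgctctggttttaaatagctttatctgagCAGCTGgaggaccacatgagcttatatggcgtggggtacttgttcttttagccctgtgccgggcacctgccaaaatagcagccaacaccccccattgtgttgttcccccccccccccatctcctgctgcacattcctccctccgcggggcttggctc
Chrna1: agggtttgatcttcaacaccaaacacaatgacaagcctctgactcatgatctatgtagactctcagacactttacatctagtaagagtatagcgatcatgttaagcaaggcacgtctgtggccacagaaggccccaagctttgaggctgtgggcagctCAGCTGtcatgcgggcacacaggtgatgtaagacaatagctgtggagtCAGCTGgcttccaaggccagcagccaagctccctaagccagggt

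These stretches are chr1:87205561-87205810 on the plus strand for Chrng, chr1:135836084-135836333 on the plus strand for Tnnt2, and chr2:73580339-73580588 on the minus strand for Chrna1. The copies begin 155 and 132 bases before the start in Chrng, 223 and 157 in Tnnt2, and 92 and 44 in Chrna1. Promoters with a copy that reached past the start, and those on an excluded chromosome, were not printed. Chrna1 and Chrng are subunits of the acetylcholine receptor of muscle, and Chrna1 was at 5.53, 6.18 and 6.55 on distal and 7.79, 8.73 and 9.11 on proximal arrays (-2.54 ± 0.11, adjusted p = 3.38e-10). Chrng differed by -2.14 ± 0.19, adjusted p = 8.96e-07 and Tnnt2, a troponin that embryonic muscle shares with the heart, by -1.70 ± 0.36, adjusted p = 0.00522, 4-mean value 0.248. Windows of 300 bases, the last 50 after the start, were found for 31 of the 42 muscle genes that were lower in distal cells. CAGCTG, which reads the same on both strands, lay in 13 of their 37 windows, for 12 of the 31 genes, and in 16.3% of all 32851 windows. By gene, it was found for 18.3% of all 27025 genes with a window. A match describes the letters and is not evidence that a factor binds there.

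Genes of macrophages, the scavenger cells that settle in the limb from the circulation, were the second cell type to differ, and in the other direction. Of 13 tested, 8 were higher in distal cells and none lower (median 0.76), and 7 of the 8 remained with 4 means, or 8 with the replicate number as a term. Csf1r, the receptor for the factor that macrophages live on, was at 7.77, 8.37 and 9.06 on distal and 7.39, 7.64 and 7.80 on proximal arrays (0.76 ± 0.13, adjusted p = 0.000938). Its other probe sets gave 1.03 ± 0.23, which passed, and 0.22 ± 0.14, which did not. Ptprc, found on all white blood cells, lay above the 40th percentile on 8 of 8 distal and 1 of 8 proximal arrays (0.80 ± 0.12, adjusted p = 0.000235). The filter on low values kept Ptprc through its distal arrays, and it still passed without that filter. C1qb, a complement protein, and Tyrobp, a signalling adaptor, differed by 1.22 ± 0.21 and 0.95 ± 0.16. The ranges of the 8 genes overlapped between the populations.

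The leading genes on the distal side held more of these. Ctss, a lysosomal protease, was at 7.71, 8.31 and 9.13 on distal and 6.67, 7.0 and 7.32 on proximal arrays, without overlap (1.41 ± 0.11, adjusted p = 2.61e-07). Lyz1, a lysozyme, differed by 1.92 ± 0.25, adjusted p = 6.3e-05, and its near-identical neighbour Lyz2 by 0.77 ± 0.15, so the share of each in the signal is uncertain. Other Lyz1 probe sets gave 1.47 ± 0.31, which passed, and 0.16 ± 0.12, which did not. Gpnmb and Mpeg1, a glycoprotein and a pore-forming protein of macrophages, differed by 1.41 ± 0.21 and 1.26 ± 0.27.

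Differences of Csf1r in the 4 pairs were 0.39, 1.19, 0.25 and 1.20, in the order day 1 control, day 1 BMP4, day 2 control and day 2 BMP4, so both BMP4 pairs exceeded both control pairs. On the BMP4 arrays alone 10 of the macrophage genes were called higher in distal cells, and on the control arrays alone 0 were. The difference between the treatments did not pass for Csf1r (0.87 ± 0.16, adjusted p = 0.428) or for Mpeg1 (1.51 ± 0.40, adjusted p = 0.786). By limma its unadjusted p was below 0.05 for 8 of the 13 macrophage genes tested, against 638 of all 14692 genes. None passed after adjustment. Genes of a single cell type can move together across the same arrays, so these 8 are not separate results. The summed signal of all 15 listed macrophage genes had a lowest, median and highest value of 769, 1304 and 1831 on distal, 629, 699 and 726 on proximal, and 744, 1124 and 1946 on distal hindlimb arrays.

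**Figure D4:**
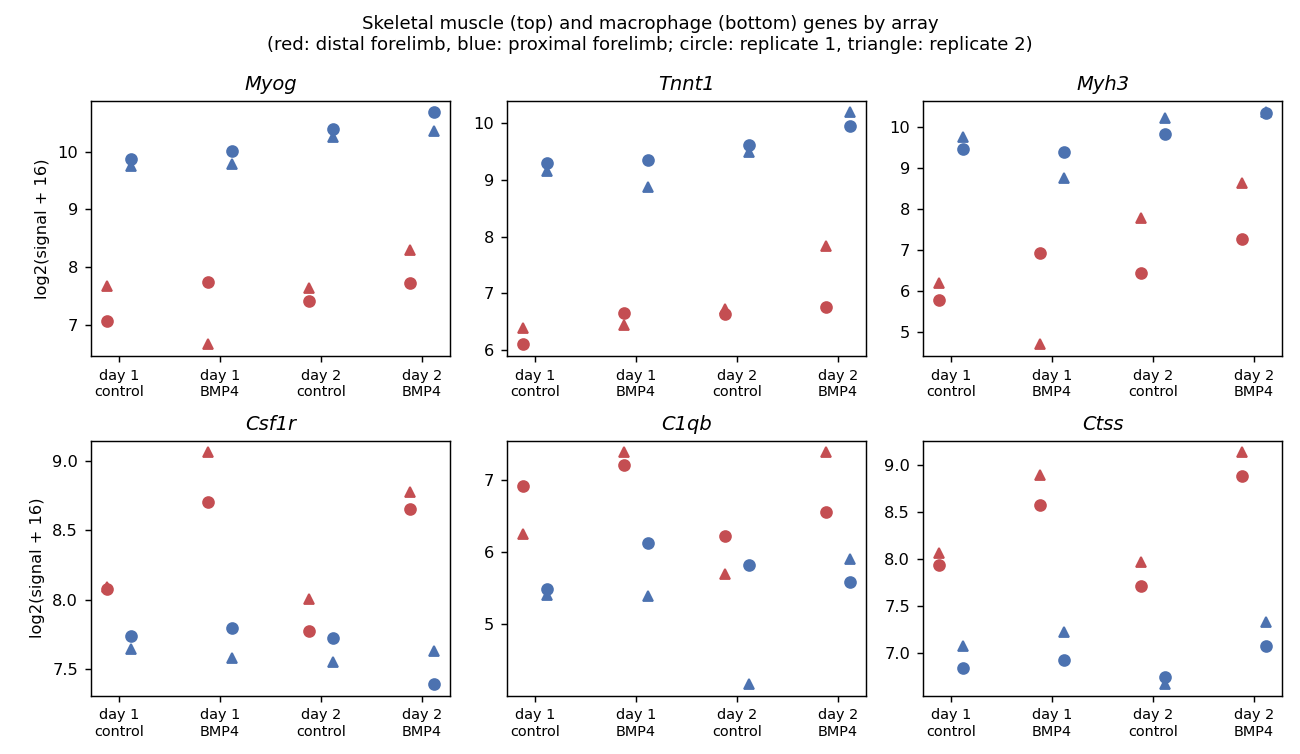
Level of 3 skeletal muscle genes (top) and 3 macrophage genes (bottom) on each forelimb array (y axis, log2(signal + 16)) by day and treatment (x axis), red for distal and blue for proximal. The muscle genes are separated in every pair, with Myog at 6.66 to 8.29 against 9.75 to 10.69, while Csf1r in distal cultures is highest with BMP4.

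Other cell types had fewer genes past the threshold. Over all 23 commitment genes with a probe set, the summed signal was 1904 to 3199 on distal and 5160 to 8032 on proximal arrays, which did not overlap, and over the 29 sarcomere genes it was 2420 to 9371 and 9579 to 22607. Endothelium had 2 of 13 higher in distal cells, the receptor Flt1 (0.79 ± 0.18) and the co-receptor Eng (0.71 ± 0.17), and its marker Pecam1 was above the 40th percentile on 0 distal and 1 proximal arrays. Of 6 tested genes of red blood cells none passed, and Hbb-bh1, an embryonic globin, was above that percentile on 0 of the 16 arrays. Of 17 genes of nerve, Schwann cells and melanoblasts 2 were higher and 3 lower (median -0.01). On the low side were Ngfr, a nerve growth factor receptor, at -1.29 ± 0.13, adjusted p = 3.1e-06 and Erbb3, a neuregulin receptor, at -0.97 ± 0.11. On the high side were Cdh19 (0.72) and Mitf (0.56), with 4-mean values of 0.0847 and 0.166. The marker Sox10, above the 40th percentile on 8 distal and 8 proximal arrays, was at -0.01 and did not pass. Of 16 ectoderm genes 1 was higher and 2 lower. Over all genes tested 3.23% were higher and 5.66% lower, so counts this small say little about a list. Summed signals of these lists overlapped between the populations, at 883 to 1527 on distal and 748 to 975 on proximal arrays for endothelium, 937 to 1404 and 1322 to 1666 for nerve, and 1395 to 2397 and 1565 to 2138 for ectoderm. The part of these cells in the differences of the other genes was not tested.

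Cartilage is the tissue that dense cultures of limb mesenchyme form, and none of the 24 tested genes of its matrix passed the test between the populations (median -0.12). Col2a1, the main collagen of cartilage, was at 11.48, 11.79 and 12.17 on distal and 11.11, 11.75 and 11.87 on proximal arrays (0.19 ± 0.11, adjusted p = 0.32), and Acan, its main proteoglycan, at 6.95, 8.05 and 8.96 and 6.33, 7.99 and 8.81 (0.08 ± 0.16, adjusted p = 0.829). Ranges of both genes overlapped between the populations. The median of the 24 differences was 0.07 and 0.26 in the control pairs of day 1 and day 2 and -0.47 and -0.18 in the BMP4 pairs. The change of the difference with BMP4 had an unadjusted p below 0.05 for 7 of the 24, against 638 of all 14692 genes, and none passed after adjustment. Genes of a single tissue can move together across the same arrays, so these 7 are not separate results. Matn1, a matrix protein of cartilage, passed with 4 means (difference -0.67 ± 0.29, adjusted p = 0.0323), and 1 gene was lower in distal cells on the BMP4 arrays alone and 1 higher on the control arrays alone. Sox9, which starts cartilage formation, differed by 0.12 ± 0.11 and did not pass, while its partner Sox5 was higher in distal cells (0.60 ± 0.13, adjusted p = 0.00529, 4-mean value 0.162). Among 9 genes of cartilage maturation 3 were lower, namely Ihh, a hedgehog ligand of maturing cartilage (-0.59 ± 0.15), and the factors Runx3 and Dlx5 (-1.04 ± 0.22 and -0.72 ± 0.13).

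Among joint and BMP pathway genes, differences ran both ways. Gdf5, the growth factor of the joint-forming zone, was at 8.05, 8.57 and 9.59 on distal and 6.28, 7.37 and 8.01 on proximal arrays, without overlap (1.47 ± 0.24, adjusted p = 0.000735, 4-mean value 0.0591). Its difference in the 4 pairs was 1.97, 0.73, 2.17 and 0.99, in the order used above, and its receptor Bmpr1b was higher as well (0.88 ± 0.21, adjusted p = 0.012, 4-mean value 0.254). Nog, a BMP antagonist, differed by 0.60 ± 0.12 and Bmp5, a ligand, by -1.07 ± 0.07, adjusted p = 5.01e-08. In all, 4 of 28 BMP pathway genes were higher in distal cells and 1 lower, and 3 of 10 joint genes were higher and 3 lower. In the 4-mean fit these counts were 0 and 1 for the BMP pathway and 1 and 0 for the joint, and with the replicate number as a term 5 and 1, and 3 and 3. Wnt4 and Wnt9a, which the joint zone also makes, were on the low side (-0.68 ± 0.18 and -0.68 ± 0.16).

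Of 31 genes of the WNT pathway 6 were higher in distal cells and 3 lower. Wnt5a, a ligand of the limb tip, did not overlap (0.63 ± 0.09, adjusted p = 0.000167), the receptor Fzd5 differed by 1.03 ± 0.13, adjusted p = 3.19e-05, and Rspo2, which strengthens WNT signals, was lower (-0.97 ± 0.19, adjusted p = 0.00247, 4-mean value 0.151). Of 14 Notch genes 4 were lower and 1, Jag1, higher. Hes6, a factor that promotes differentiation, was at 7.28, 7.42 and 7.70 on distal and 8.68, 8.84 and 9.15 on proximal arrays, without overlap (-1.40 ± 0.08, adjusted p = 5.7e-09). Dll1, a ligand also made by myoblasts, was without overlap too (-1.02 ± 0.08, adjusted p = 1.17e-07). Of 18 TGF-beta genes 2 were higher, Ltbp1 (0.49 ± 0.08) and Tgfbi (0.27 ± 0.07), where 3.23% of all genes were higher.

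Guidance and matrix genes differed in both directions. Of 35 Eph receptors, ephrins and guidance cues, 4 were higher and 8 lower, among them the receptors Ephb1 (-1.31 ± 0.13, adjusted p = 1.91e-06) and Epha7 (-0.88 ± 0.11, adjusted p = 4.13e-05), both without overlap, and the guidance cue Sema5a (-0.93 ± 0.12). Of 26 genes of tendon and fibrous matrix, 9 were lower and 2 higher. With the random block, which takes arrays of the same population and number as related, these counts were 6 and 1, in the 4-mean fit 3 and 0, and with the replicate number as a term 7 and 2. Elastin, Eln, differed by -0.94 ± 0.11, adjusted p = 3.19e-05, the proteoglycans Lum and Ogn by -0.72 ± 0.11 and -0.70 ± 0.13, and Col3a1, a fibrous collagen, by -0.53 ± 0.09, with 4-mean values of 0.0542, 0.0753 and 0.0786. The brighter probe set of Scx, the tendon factor, was at -0.40 ± 0.21 and did not pass, while its other probe set passed at -0.78 ± 0.096 (adjusted p = 3.77e-05). Of 19 somite and body wall factors 5 were lower, led by Meox1, a factor of the somite and its muscle (-1.37 ± 0.13, adjusted p = 1.71e-06).

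Igfbp3, which binds insulin-like growth factors, was at 6.17, 6.77 and 7.57 on distal and 8.29, 8.74 and 9.66 on proximal arrays, 4.47-fold lower and without overlap (-2.16 ± 0.14, adjusted p = 2.33e-08). Of 23 genes in its list 5 were lower and 1 higher, with Cxcr4, a chemokine receptor that migrating muscle precursors carry, at -1.04 ± 0.12. Of 18 genes of hypoxia and glycolysis 4 were lower (median -0.30), among them Egln3, an oxygen sensor (-1.33 ± 0.14, adjusted p = 4.8e-06), and Vegfa, a vessel growth factor (-0.59 ± 0.11). Of 24 cell cycle genes 2 were lower and none higher (median -0.14), near the share of 5.66% lower over all genes. Of 18 immediate early genes 4 were higher, with Jun at 0.71 ± 0.12, adjusted p = 0.000993, 4-mean value 0.0786. In fits without 1 array, small counts moved by over 1.5 times. Among genes that were higher, they ran from 2 to 7 for the 4 immediate early genes, 2 to 5 for the 3 joint genes, 2 to 4 for the 2 endothelial genes, 1 to 3 for the 2 TGF-beta genes and the 1 ectoderm gene, 1 to 2 for the 2 tendon genes, the 1 fibroblast growth factor receptor and the 1 gene of the Igfbp3 list, and 0 to 2 for the 1 retinoid gene. Among genes that were lower, they ran from 4 to 8 for the 4 hypoxia genes, 1 to 4 for the 2 cell cycle genes, 1 to 5 for the 3 WNT genes, 3 to 5 for the 3 cartilage maturation genes and 1 to 3 for the 2 ectoderm genes. The 4-mean fit also lowered the counts of the other lists of this and the preceding 2 paragraphs, to 2 higher and 0 lower for WNT, 1 and 2 for Notch, 0 and 0 for TGF-beta, 0 and 2 for guidance, 0 and 1 for somite factors, 0 and 4 for the Igfbp3 list, 0 and 1 for hypoxia, 0 and 0 for the cell cycle and 0 and 0 for immediate early genes. With the replicate number as a term the counts were 6 and 2, 1 and 2, 3 and 0, 5 and 6, 0 and 5, 1 and 4, 0 and 8, 0 and 1, and 5 and 0.

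**Figure D5:**
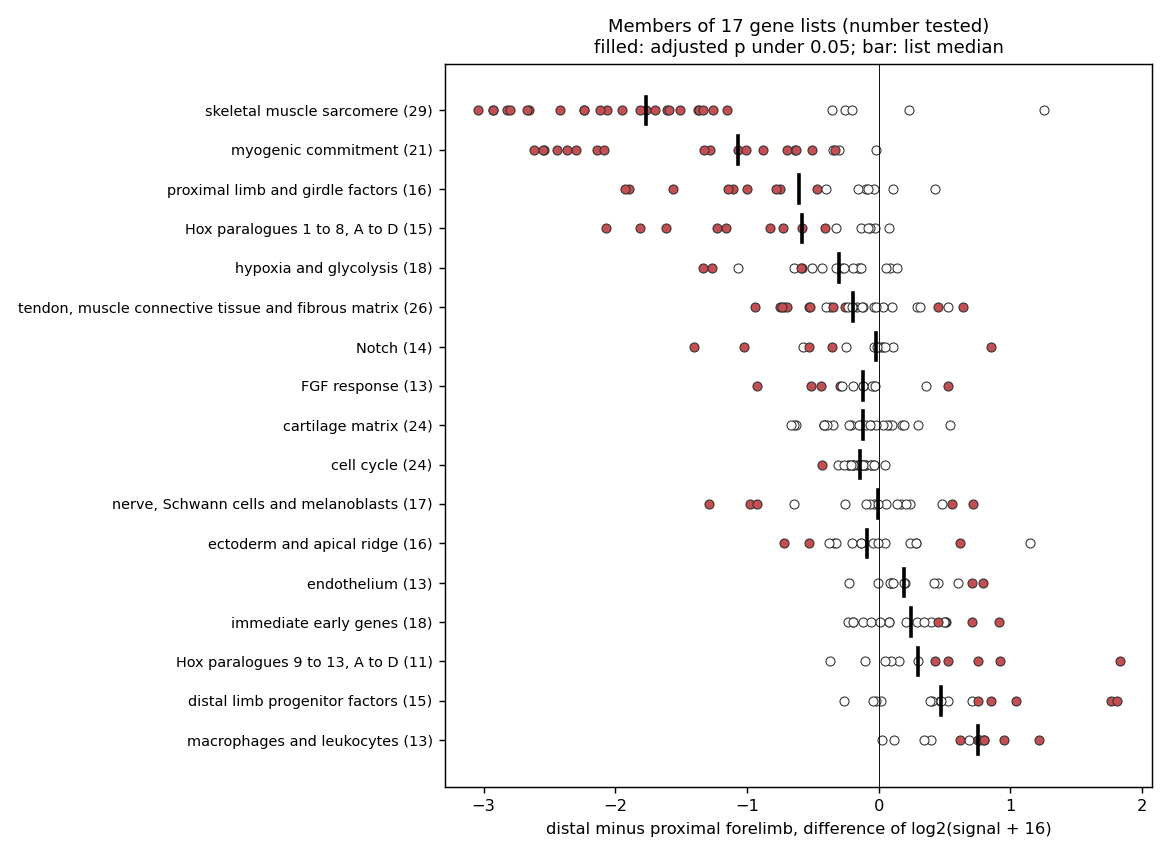
Distal minus proximal difference (x axis, log2 scale) of every tested member of 17 gene lists (y axis, number tested in parentheses), filled where the adjusted p is below 0.05, with a bar at the median of the list. The skeletal muscle lists have medians of -1.77 and -1.07, cartilage matrix lies around 0 with no filled point, and macrophage genes have a median of 0.76.

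Whether position and culture interact was tested by the change of the difference with time and with BMP4. Between day 1 and day 2 the difference changed for 1 of 14692 genes (0.00681%), and 935 genes had an unadjusted p below 0.05. The gene was Aldh1l2, a mitochondrial folate enzyme, with differences of -1.51, -0.84, 0.13 and -0.10 in the order day 1 control, day 1 BMP4, day 2 control and day 2 BMP4. It changed by 1.19 ± 0.16 (adjusted p = 0.0492), so it was lower in distal cells on day 1, with values nearer 0 on day 2. In fits without 1 array the call was kept when either distal day 1 BMP4 array was left out, with 10 genes called without replicate 1 and 4 without replicate 2, and 0 genes were called without any of the other arrays. Between control and BMP4 the limma fit called 0 genes (0%), with 638 at an unadjusted p below 0.05. Single arrays moved this count to 1, which was Pcp4, a calmodulin-binding protein, without distal day 1 control replicate 2 (1.81), and Zap70, a kinase of T cells, without distal day 1 BMP4 replicate 1 (3.19).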

How the data were processed

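RNA of cultured limb mesenchyme was hybridised to 30 Affymetrix Mouse 430 2.0 arrays, of which 16 were compared. The deposited values are linear signal intensity made by the authors with MAS5, per the submitters' processing notes, with settings not given in the sources used. Each array's trimmed mean was 150, so deposited intensity was already scaled. Signals were used as log2(signal + 16), without detection calls, which understates differences of dim genes. Probe sets above their array's 40th percentile (signal 20.24 to 30.09) on at least 2 of the 16 arrays were kept. The brightest probe set with 1 symbol stood for each of 14692 genes.

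limma 3.58.1 in R 4.3.3 fitted a population term and 4 day-by-treatment levels (11 residual degrees of freedom, moderated with a trend), two-sided, with Benjamini-Hochberg adjustment over all genes. Interactions came from 8 group means. The procedure was tested on simulated data with independent noise on each array, so that test could not show the effect of arrays that deviate together. The labels call the 2 arrays of a group biological replicates and name no separate cultures or litters, so p-values measure the spread between these samples, and the number of arrays limits precision. Same-numbered distal and proximal arrays of a day and treatment deviated together in 3 of 4 pairs (correlations 0.172 to 0.308) and not in the other (-0.000645), so the fit has no replicate block, and fits with one are alternatives.

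The text names the 15 genes with the largest difference each way among those past the threshold with 1 sign in all 4 pairs, up to 6 each way per interaction, up to 5 members of each list with the smallest adjusted p, and a set of position, cartilage and muscle genes. Further list members are named as examples of their role, chosen after their values were seen. The 32 lists hold 616 genes, 531 of them tested, and 38 had no match on the array by symbol. Members and lists were chosen with earlier results of these data known. Alternatives were other pseudocounts, filters, scalings, probe set rules and fits, a replicate block, and fits without 1 array. Fits by day, by treatment or by replicate number, the random block and the 4-mean fits without and with the replicate number are among them.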

Additional observations from a re-analysis of the deposited data

Results flagged for a closer look

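Among 54 genes, each checked in the 8 distal and in the 8 proximal arrays (108 groups), 6 single arrays stood apart from the rest of their population, and chance alone would mark about 1 in 20 groups. In the proximal cultures, day 2 BMP4 replicate 2 was low for Eomes, at 4.44 against 5.52 to 6.41 on the other 7 arrays, and for Hoxd13, at 6.87 against 7.83 to 8.52. Proximal day 1 BMP4 replicate 2 was low for Myl1, at 8.81 against 10.13 to 11.08. In the distal cultures, day 2 BMP4 replicate 2 was high for the muscle genes Tnnt1, at 7.83 against 6.10 to 6.77, and Myod1, at 8.73 against 7.26 to 7.94. Distal day 1 BMP4 replicate 1 was low for Tbx5, at 7.96 against 8.52 to 9.0. Eomes, Hoxd13, Myl1, Tnnt1 and Myod1 kept their calls in every fit without 1 array.

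The difference between the populations changed with the day for Aldh1l2, by 1.19 on the log2 scale (adjusted p = 0.0492 by limma). It was the 1 gene of 14692 to pass that test.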

How the results depend on the processing

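The count of 1307 stayed within 1.5 times under other pseudocounts, filters, scalings, probe set rules and spreads, and ran from 1020 to 1542 without 1 array. It fell with fewer arrays, to 381 on day 1 and 601 on day 2 arrays, 491 on control and 498 on BMP4 arrays, 833 on replicate 1 and 808 on replicate 2 arrays. Taking population and replicate number as a random block (correlation 0.096) gave 867, and 4 means gave 266, or 839 with the replicate number as a replicate block. The fits by replicate number, the random block and the 4 means were chosen after seeing the data. Median centring moved the median of all genes to -0.0322 and the share of lower genes from 63.7% to 71.3%. The replicate block that pairs arrays by number gave 1725 and an additive replicate block 1841, though the numbers did not meet the bar for a pairing in every pair. Of 143 named genes past the threshold, 128 passed in every fit without 1 array, 143 with the additive replicate block, 69 with 4 means and 132 with 4 means and the replicate block. The sign turned for Aldh1l2 on day 2 arrays alone (0.016, adjusted p = 0.951) and for Spry2 with the mean of its probe sets (0.024, adjusted p = 0.928), and the cause was not tested.

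The count for change with the day was 0 with a pseudocount of 64, no filter, median centring, the other fit, the spread from 24 arrays or no trend, 2 with the replicate block of pairs (Aldh1l2 and Matn1), and 0 to 10 without 1 array. The count for change with BMP4 was 0 in every other setting and 0 to 1 without 1 array. No detection calls were used, so genes near background have small differences on this scale and are the least sure.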

Other observations

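Some of the clearest genes on the proximal side belonged to none of the lists and were chosen after their values were seen. Lrrn1, a membrane protein with leucine-rich repeats, had the smallest adjusted p of all genes (difference -2.11 ± 0.07, adjusted p = 2.57e-11 by limma). It was lower in distal cells in all 4 pairs, by -2.06, -2.15, -2.19 and -2.05 in the order day 1 control, day 1 BMP4, day 2 control and day 2 BMP4. Sim2, a factor of the bHLH-PAS family, differed by -2.02 ± 0.12, Cnr1, a cannabinoid receptor, by -1.95 ± 0.12, and Nr2f1, an orphan nuclear receptor, by -1.66 ± 0.11. Cldn11, a claudin of tight junctions, differed by -1.64 ± 0.13.

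Several position-dependent genes differed by replicate number in both populations. The replicate 2 array was the lower one in all 8 groups for Hoxd13 and Sall1 and the higher one in all 8 for Meis1. For Hoxd13 the distal arrays were at 10.33 to 10.73 in replicate 1 and 8.98 to 9.69 in replicate 2, and the proximal arrays at 8.40 to 8.52 and 6.87 to 8.23. With the replicate number as an additive block the adjusted p by limma was 9.37e-08 for Hoxd13, 2.11e-09 for Sall1 and 5.54e-08 for Meis1. What the replicate numbers stand for beyond separate samples is not given in the labels, and no cause was tested.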
